A study of Mus musculus with 8 samples.

Results

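The 9 genes described here are the homeostatic microglia genes P2ry12, P2ry13, Gpr34, Cx3cr1, Tmem119, Siglech, Fcrls, Sall1 and Olfml3, chosen by name from the 18473 genes kept in the single-cell tables. They were followed as unique molecular identifiers (UMIs, 1 per captured RNA molecule) per 1000000 UMIs of a cell class, written CPM, and as the share of cells with at least 1 UMI, in naïve microglia, tumour microglia and infiltrating macrophages. The study profiled brain cells by Drop-seq, a droplet method that tags the 3′ ends of RNA, from naïve C57BL/6 mice (C57BL/6N in the methods) and from mice carrying orthotopic GL261 tumours, a mouse glioma line of which 500 cells had been implanted. WT mice (Irg1/Acod1 +/+) and Acod1 KO mice (Irg1/Acod1 -/-) each gave 1 library at the naïve condition, from 2 pooled mice, and 1 library from 1 mouse at the early (5 to 10 mm3), intermediate (20 to 25 mm3) and late (30 to 35 mm3) tumour stage. The KO line bears a cassette inserted into the gene, and the WT mice were littermates without it. According to the methods the early WT mouse and the intermediate KO mouse were female and the other 4 tumour-bearing mice were male, so that genotype and sex cannot be told apart at the early and intermediate stage, nor genotype and library at any stage. From tumour-bearing mice the tumour core was taken, whereas the methods name no region for the naïve brains. Tumour and brain region sampled therefore cannot be told apart, and the methods do not give the sex of the naïve mice. Brains were taken after perfusion and myelin was removed with beads, and no sort is stated for these libraries.

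Homeostatic genes are those that microglia, the resident macrophages of the brain, express in the unperturbed tissue and not in most other macrophages. Many encode surface receptors with which microglia survey their surroundings, and their expression depends on TGF-β and CSF1 receptor signalling and on the transcription factors PU.1, MEF2 and SALL1. Reduced expression of these genes is a known feature of microglia in injury, inflammation, neurodegeneration and tumours, while macrophages that enter the brain from blood monocytes acquire them poorly.

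A total of 5698 cells was kept from the 8000 top barcodes, 454 to 1000 per library, with a median of 2597.5 to 5637.5 UMIs per cell. At most 2 barcodes of kept cells were shared by any pair of libraries. The 9 genes and 35 further homeostatic genes were left out of the clustering, and classes were named from other markers. The microglia-like class (TAM I in tumours) held 370 cells, with 85 and 113 cells in the WT and KO naïve libraries, 64 and 23 at the early, 5 and 44 at the intermediate and 19 and 17 at the late stage. The macrophage-like class (TAM II) held 417 cells of tumour libraries, with 106 and 75 cells in the WT and KO early libraries, 16 and 84 at the intermediate and 23 and 113 at the late stage. All 8 microglia markers, Trem2 among them, were detected in microglia at a summed level of 16670 to 17030 CPM in the naïve and 8052 to 12850 in the tumour libraries. In macrophages the same 8 markers summed to 902.7 to 2990. The Acod1 gene checks the KO label only weakly, since its 3′ tag may lie outside the altered part. No Acod1 UMI was found in the naïve libraries, and the WT libraries held 161, 21 and 10 UMIs at the early, intermediate and late stage. The libraries labelled KO held 33, 26 and 41, so the label was not checked by the counts, and WT and KO below are the labels of the libraries.

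All positions are those of GENCODE M21 on GRCm38. P2ry12 (ENSMUSG00000036353.13, chr3:59216272-59262871, minus strand) and P2ry13 (ENSMUSG00000036362.2, chr3:59207892-59210882, minus strand) are neighbours with 5389 bases between them, both inside Med12l on the other strand. Gpr34 (ENSMUSG00000040229.11) lies at chrX:13632089-13640858 within Cask of the other strand, and Cx3cr1 (ENSMUSG00000052336.7) at chr9:119901616-120069879, a span that overlaps 9 other annotated genes. Of these neighbours microglia held 75 UMIs of Med12l, 91 of Cask and at most 100 of the 4 genes overlapping Cx3cr1 that were counted, against 430 of P2ry13, 2581 of P2ry12, 1061 of Gpr34 and 3364 of Cx3cr1. Tmem119 (ENSMUSG00000054675.5) lies at chr5:113793729-113800516, Siglech (ENSMUSG00000051504.18) at chr7:55768178-55778925, Fcrls (ENSMUSG00000015852.13) at chr3:87250758-87263738, Sall1 (ENSMUSG00000031665.7) at chr8:89027235-89044162 and Olfml3 (ENSMUSG00000027848.12) at chr3:103722222-103738001, with no overlapping gene.

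Promoters of 7 of the 9 genes were found in the RefSeq table, as 9 windows of which Sall1 has 3 (GRCm38.p6, 250 bases before to 50 bases after the start). Those of P2ry12 and P2ry13 are shown because these neighbours encode related receptors and both fell in tumour microglia, that of Cx3cr1 because it was the member found in most macrophages, and that of Fcrls because its macrophage level spanned the widest range of CPM between libraries. Each is written 5′ to 3′ along the gene, with matches to a searched motif in capitals. The regions are chr3:59262936-59263235, chr3:59210833-59211132, chr9:120068247-120068546 and chr3:87263475-87263774 in this order, all on the minus strand.
P2ry12: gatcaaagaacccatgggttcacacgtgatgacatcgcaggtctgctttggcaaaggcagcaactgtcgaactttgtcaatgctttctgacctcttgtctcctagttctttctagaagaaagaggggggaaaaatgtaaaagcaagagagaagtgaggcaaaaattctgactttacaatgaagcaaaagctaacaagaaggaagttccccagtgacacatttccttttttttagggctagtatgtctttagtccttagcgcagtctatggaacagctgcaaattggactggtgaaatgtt
P2ry13: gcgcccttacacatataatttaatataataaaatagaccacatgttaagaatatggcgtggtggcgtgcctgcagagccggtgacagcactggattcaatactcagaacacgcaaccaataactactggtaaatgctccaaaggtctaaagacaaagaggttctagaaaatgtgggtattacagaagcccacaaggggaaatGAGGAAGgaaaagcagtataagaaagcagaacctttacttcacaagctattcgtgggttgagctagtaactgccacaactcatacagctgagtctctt
Cx3cr1: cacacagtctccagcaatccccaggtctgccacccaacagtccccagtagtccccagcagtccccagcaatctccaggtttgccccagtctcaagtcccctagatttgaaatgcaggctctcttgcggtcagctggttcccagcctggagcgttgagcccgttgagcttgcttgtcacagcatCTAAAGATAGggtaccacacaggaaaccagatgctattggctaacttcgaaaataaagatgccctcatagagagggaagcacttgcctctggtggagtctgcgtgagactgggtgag
Fcrls: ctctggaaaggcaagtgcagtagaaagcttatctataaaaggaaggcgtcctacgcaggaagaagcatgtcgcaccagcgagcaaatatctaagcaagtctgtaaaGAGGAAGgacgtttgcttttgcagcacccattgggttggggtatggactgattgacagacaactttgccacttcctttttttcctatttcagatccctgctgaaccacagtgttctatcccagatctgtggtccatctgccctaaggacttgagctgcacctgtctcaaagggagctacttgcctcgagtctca

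Both strands were searched for GAGGAAG, a core of PU.1 sites, for GGAA and GAAA with any 2 bases between them, an ETS-IRF composite element, and for CTA and TAG with any 4 bases between them, the MEF2 element. The PU.1 letters were present in 2 of the 9 windows, in P2ry13 from base -48 and in Fcrls from base -144 relative to the start, against 13.63% of all 32851 promoters. The MEF2 letters were present in Cx3cr1 from base -67, against 3.686% of all promoters, and the composite element was in none of the 9, against 2.715%. The 3 motifs together were thus found in 3 of 9 windows against 19.14% of all, which is a description of these windows only.

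Tumour microglia were compared with naïve microglia to ask how the homeostatic genes differ in cells of the same class between tumour core and naïve brain. All 9 genes were lower on average in tumour microglia. In the quasi-likelihood F-test of edgeR, fitted with a genotype covariate, 8 of the 9 fell at an adjusted p under 0.05 (Benjamini-Hochberg over 3165 genes), and none rose, where 16.1% of all genes tested were called in either direction and 6.73% as lower and 9.32% as higher. The median log2 fold change of the 9 genes was -1.28, against 0.000503 for all genes. The study itself reported lower P2ry12, Gpr34, Cx3cr1, Tmem119, Siglech, Fcrls and Olfml3 in tumour-associated microglia from the same libraries. All 9 genes were chosen with earlier results of these data known, so their direction is not independent evidence.

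**Figure D1:**
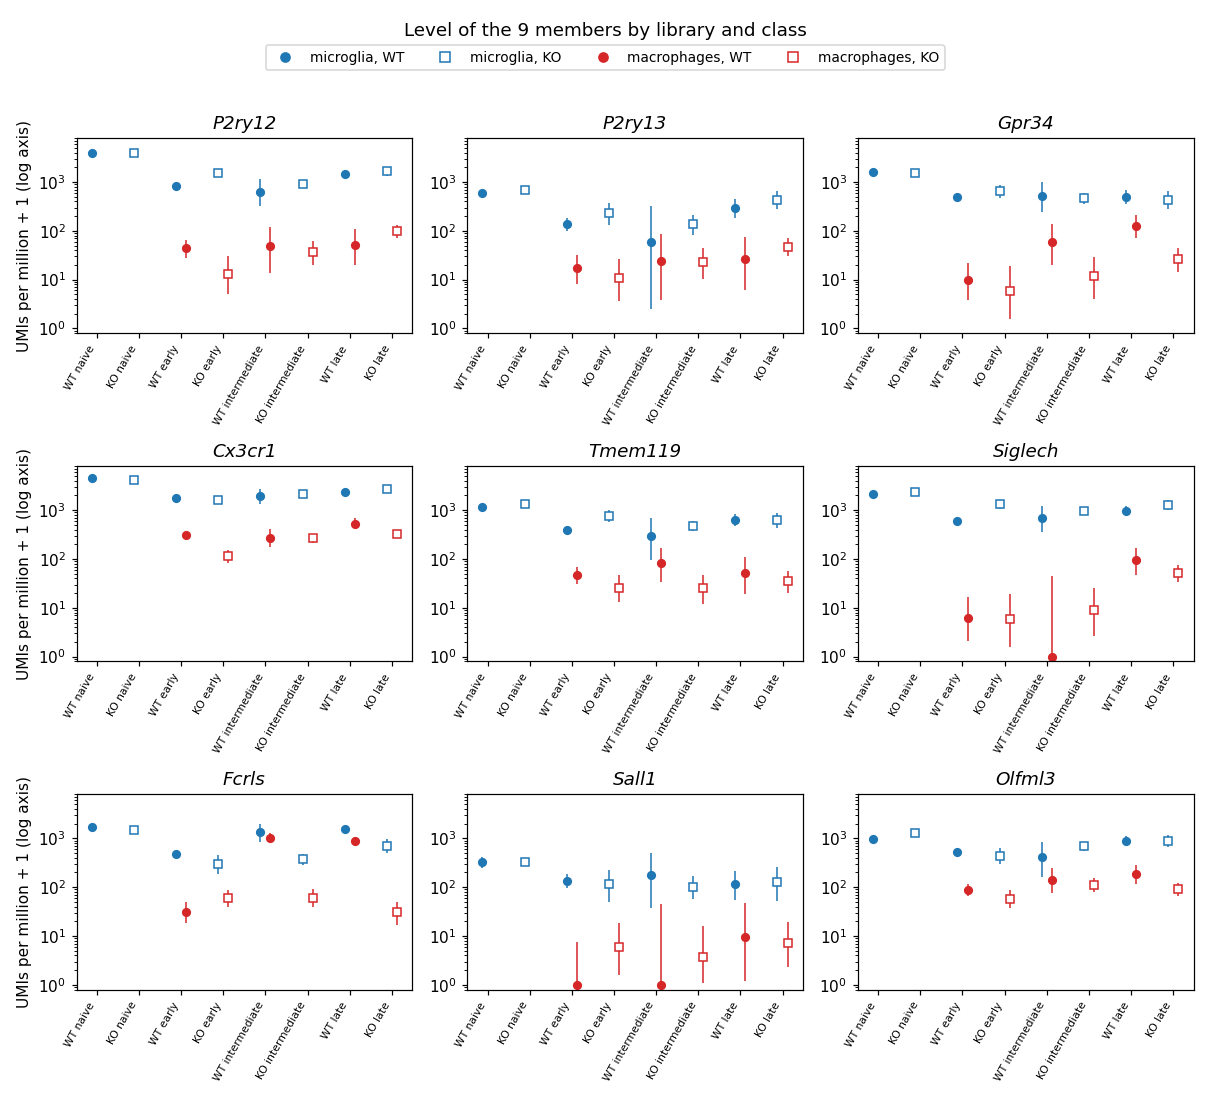
CPM plus 1 on a log axis for each of the 9 genes, by library, in microglia (blue) and macrophages (red) of WT (filled) and KO (open) libraries, with exact 95% Poisson intervals that cover counting error only. For 8 of the genes every tumour microglia level lies under both naïve levels and every macrophage level under every microglia level, while Fcrls in macrophages of the WT intermediate and WT late libraries (1026 and 865.2) lies within the microglia range.

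P2ry12 encodes the ADP receptor with which microglial processes sense injury. Its level was 3893 and 3990 CPM in WT and KO naïve microglia, against 813.4 and 1539 at the early, 634.7 and 917.6 at the intermediate and 1427 and 1676 at the late stage. All 6 tumour libraries lay below both naïve libraries, with the WT intermediate library, of only 5 cells, lowest and the KO late library highest. The fall was -1.78 ± 0.31 on the log2 scale (SE, 2 naïve and 6 tumour libraries, adjusted p = 0.000952).

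P2ry13, which encodes a second ADP receptor, stood at 591.8 and 677.8 CPM in WT and KO naïve microglia and at 57.7 to 432.4 in the tumour libraries, median 180.8. The lowest value, of the WT intermediate library, rests on 1 UMI in 5 cells, with an exact 95% Poisson interval of 1.46 to 321.5. The groups did not overlap, and P2ry13 changed by -1.57 ± 0.36 (SE, adjusted p = 0.00603). Gpr34, a receptor for lysophosphatidylserine, was at 1609 and 1499 CPM in the WT and KO naïve libraries and at 432.4 to 649.6, median 491.1, in the tumour libraries. The 6 tumour levels of Gpr34 were close to each other and all far under the naïve levels, a change of -1.61 ± 0.28 (SE, adjusted p = 0.000856).

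Cx3cr1 encodes the receptor of fractalkine, a chemokine of neurons. It gave 4506 and 4206 CPM in WT and KO naïve microglia and 1638 to 2757, median 2001, in tumour microglia. The early libraries were lowest and the late libraries highest, without overlap with the naïve ones, and the change was -1.07 ± 0.28 (SE, adjusted p = 0.0137). With no filter on low counts this call was lost (adjusted p = 0.0889), as it was without the KO early library (adjusted p = 0.0534).

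Tmem119, a transmembrane protein used as a microglia marker, was measured at 1173 and 1314 CPM in the WT and KO naïve libraries and at 288.5 to 762.5, median 551.8, in the tumour libraries. The lowest of these came from the WT intermediate library with 5 cells. Tmem119 changed by -1.22 ± 0.30 (SE, adjusted p = 0.0105) and the groups did not overlap. Siglech, a sialic acid-binding lectin, was measured at 2185 and 2341 in the WT and KO naïve libraries and at 610.0 to 1327, median 950.2, in the tumour libraries. Its groups were likewise separate, with a change of -1.28 ± 0.28 (SE, adjusted p = 0.00502). Both genes were highest among tumour libraries in the KO early library.

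Fcrls, an Fc receptor-like scavenger protein, was the member whose groups overlapped. Its level was 1671 and 1478 CPM in WT and KO naïve microglia, 485.2 and 296.5 at the early, 1327 and 371.1 at the intermediate and 1517 and 702.7 at the late stage. The WT late library thus lay above the KO naïve library, and the WT intermediate library, with 5 cells, close beneath it. The change of -1.24 ± 0.37 (SE) passed the test (adjusted p = 0.0266), but not with genotype left out of the model (adjusted p = 0.0649) nor in cells with at least 1500 genes (adjusted p = 0.0568). It was lost as well without the KO early (adjusted p = 0.0837) or the KO intermediate library (adjusted p = 0.0625).

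Sall1, a zinc-finger transcription factor that maintains microglia identity, was at 321.8 and 328.4 CPM in WT and KO naïve microglia and at 101.2 to 173.1, median 120.4, in the tumour libraries. The highest of these came from the WT intermediate library and rests on 3 UMIs, and the groups did not overlap. The change was -1.38 ± 0.29 (SE, adjusted p = 0.00331), which was lost in cells with at least 1500 genes (adjusted p = 0.0782). Olfml3, a secreted olfactomedin-domain glycoprotein, was at 986.3 and 1265 CPM in the WT and KO naïve libraries and at 403.9 to 892.1, median 611.7, in the tumour libraries. Its tumour levels were all lower without overlap, although the change of -0.78 ± 0.32 (SE) did not pass the test (adjusted p = 0.108). The lowest Olfml3 level came from the WT intermediate library with 5 cells.

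In all, 8 of the 9 genes had every tumour level under both naïve levels, a pattern that 14.9% of the 3165 genes showed. As a share of the mean naïve level the tumour median ran from 28.5% for P2ry13 and 29.7% for P2ry12 to 45.9% for Cx3cr1 and 54.3% for Olfml3. The naïve group is 2 libraries, and the calls rest on both. Without the WT naïve library 84 genes and none of the 9 were called, at log2 fold changes of -1.75 to -0.95 and adjusted p-values of 0.051 to 0.39. Without the KO naïve library 42 genes were called, of the 9 only P2ry12, at -2.06 to -0.71 and 0.039 to 0.5. At an unadjusted p under 0.05 these fits held 8 and 7 of the 9 genes, and both assume that the lone naïve library varied like the tumour libraries. Macrophage markers moved with the comparison, since 5 of 10 were detected in naïve microglia at a summed 493.1 to 506.6 CPM and 9 of 10 in tumour microglia at 1140 to 3914, with Ly6c2, Arg1, Plac8, Chil3 and Thbs1 at 0 in the former and Chil3 at 0 in the latter. Border macrophage markers were higher in naïve microglia (468.2 to 747.5 against 47.2 to 342.5 CPM). With cells led by border macrophage markers left out, which removed 4 naïve cells and no tumour cell, the same number of the 9 genes was called. The part of the macrophage markers in the result was not tested.

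Shares of positive cells were compared after thinning each cell to 1500 UMIs, which left out no microglia or macrophage of the tumour and naïve microglia groups. P2ry12 was found in 97.5% of naïve and 70.4% of tumour microglia (98.5% and 84.3% before thinning), with 60% to 88.2% across the tumour libraries. Cx3cr1 went from 99.0% to 89.5% (99.5% and 97.1% before), Siglech from 91.9% to 67.4% (97.0% and 83.1%), and Gpr34 from 83.3% to 47.1% (93.9% and 64.0%). Of these 4 genes Cx3cr1 had the smallest drop in share. The remaining shares went from 81.3% to 48.8% for Fcrls, from 80.8% to 53.5% for Tmem119, from 77.3% to 57.6% for Olfml3, from 56.6% to 22.7% for P2ry13 and from 37.4% to 16.9% for Sall1. In 5 of the 9 genes, P2ry12, P2ry13, Gpr34, Siglech and Sall1, all 6 tumour shares were under the lower naïve share, a pattern that 8.06% of the 3165 genes showed.

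**Figure D2:**
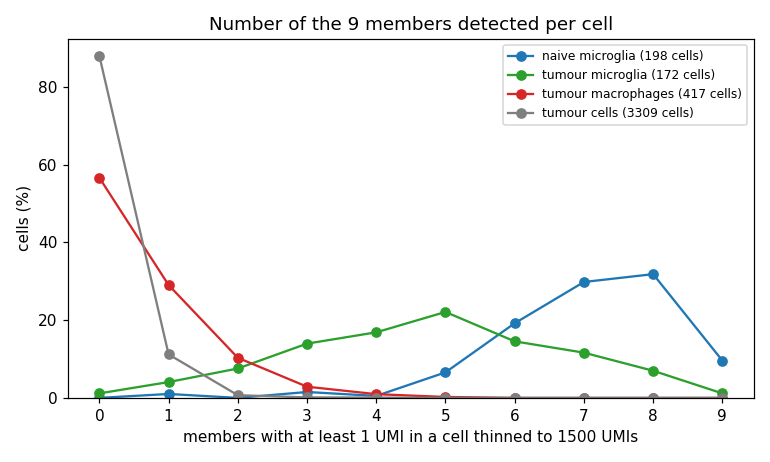
Percent of cells (y axis) by the number of the 9 genes with at least 1 UMI after thinning to 1500 UMIs (x axis), in naïve microglia, tumour microglia, tumour macrophages and tumour cells. Naïve microglia centre on 7 genes and tumour microglia on 5, while 56.6% of macrophages and 87.9% of tumour cells hold none.

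Counted per cell, naïve microglia held a mean of 7.05 of the 9 genes and none of the 198 cells lacked all of them. Tumour microglia held a mean of 4.74, with 2 of 172 cells lacking all 9. Before thinning no tumour microglia lacked all 9, and library medians were 6 or 7 genes in tumour and 8 in both naïve libraries. The values that follow are again after thinning. At least 5 genes were found in 97.0% of naïve and 56.4% of tumour microglia. The library means were 6.99 and 7.10 in the WT and KO naïve, 4.42 and 4.87 in the early, 4.2 and 4.5 in the intermediate and 5.58 and 5.59 in the late libraries. Every member was still detected in tumour microglia, with fewer of them per cell, and WT and KO libraries of a stage lay close to each other.

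Of a wider list of 35 homeostatic genes, 14 of the 33 that passed the filter were lower and none higher, where 6.73% of all 3165 genes were lower. Their median log2 fold change was -0.85. The list was also chosen with earlier results of these data known, so its direction is not independent evidence. Among receptors and surface proteins 6 of 14 fell, including Selplg, a selectin ligand (-1.67 ± 0.30, SE, adjusted p = 0.00122), Adgrg1, an adhesion receptor (-1.40 ± 0.31, adjusted p = 0.00442), and Slco2b1, an organic anion transporter (-1.39 ± 0.30, adjusted p = 0.0041). Of enzymes, adaptors and others 6 of 10 fell, led by the uroplakin gene Upk1b (-2.42 ± 0.60, adjusted p = 0.00998), the prostaglandin-degrading enzyme Hpgd (-2.07 ± 0.31, adjusted p = 0.000241), the small GTPase Rhob (-1.46 ± 0.27, adjusted p = 0.00145) and the prostaglandin D synthase Hpgds (-1.33 ± 0.28, adjusted p = 0.00323). Of transcription factors and TGF-β signalling genes 2 of 9 fell, with the TGF-β receptor Tgfbr1 at -1.41 ± 0.30 (adjusted p = 0.00341). Fold changes of the myeloid factors Spi1, which encodes PU.1, and Irf8 were -0.39 (adjusted p = 0.37) and -0.13 (adjusted p = 0.82).

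Infiltrating macrophages were compared with tumour microglia of the same libraries to ask how far the 9 genes separate the myeloid classes inside the tumour. Every gene was lower in macrophages in 6 of 6 libraries, and 9 of 9 passed the test with library as a block, where 26.5% of 3776 genes were called and 13% as lower. The median log2 fold change of the 9 genes was -3.81, against 0.05 for all genes. The fall in macrophages was called for all 9 genes under each of the 17 alternatives run.

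**Figure D3:**
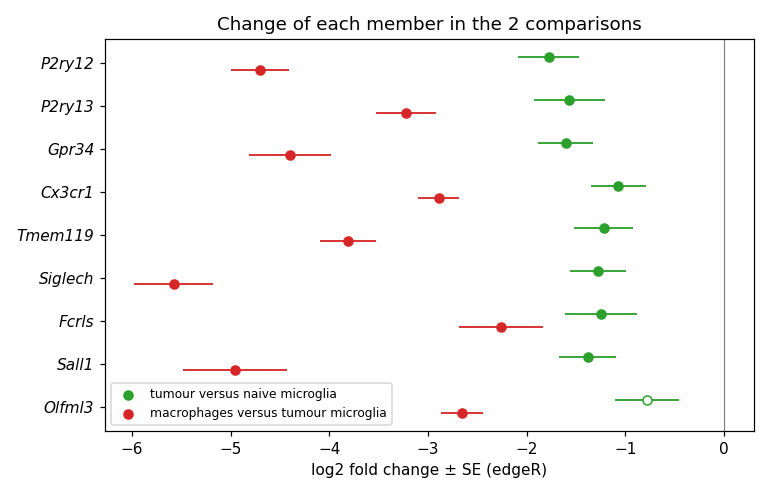
Log2 fold change ± SE (x axis) of each gene from edgeR for tumour against naïve microglia (green, 6 against 2 libraries) and for macrophages against tumour microglia (red, 6 libraries). Filled points passed an adjusted p under 0.05, and the open point, Olfml3 in tumour against naïve microglia, did not.

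P2ry12 stood at 42.7 and 12.4 CPM in WT and KO macrophages at the early, 47.2 and 35.5 at the intermediate and 50.4 and 97.1 at the late stage. Within a library, microglia held 13.5 to 124.5 times as much P2ry12, a log2 difference of -4.71 ± 0.29 for macrophages (SE, adjusted p = 1.78e-09). P2ry13 was at 9.89 to 46.4, median 22.7, in macrophages, with -3.22 ± 0.30 (adjusted p = 1.99e-07). Both ADP receptors were highest among macrophages in the KO late library.

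Siglech had the most negative of the 9 differences, -5.57 ± 0.40 (SE, adjusted p = 7.81e-09). Its macrophage levels were 5.33 and 4.94 CPM in the WT and KO early libraries, 0 and 8.20 at the intermediate and 92.4 and 50.7 at the late stage. By a 1-sided bound of 3 counts the 0 allows up to 35.4 at that depth. Sall1 was at 0 to 8.40 CPM with no more than 3 UMIs in any macrophage library, and differed by -4.96 ± 0.53 (SE, adjusted p = 8.67e-07). Sall1 was thus close to the limit of detection in macrophages, and Siglech was higher in both late libraries than in the other 4.

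Gpr34 was at 4.94 to 126.0 CPM in macrophages, median 18.1, with -4.40 ± 0.42 (SE, adjusted p = 2.37e-07), and Tmem119 at 24.6 to 82.6, median 40.0, with -3.81 ± 0.28 (adjusted p = 1.19e-08). Cx3cr1, which blood monocytes also express, stayed at 113.7 to 529.2 CPM, median 287.6, and microglia held 4.53 to 14.4 times as much. Its difference was -2.89 ± 0.21 (SE, adjusted p = 7.22e-09). Olfml3 was at 56.9 to 184.8, median 100.3, with -2.66 ± 0.21 (adjusted p = 2.86e-08). The highest Gpr34, Cx3cr1 and Olfml3 levels in macrophages all came from the WT late library.

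Fcrls gave the smallest difference, -2.26 ± 0.42 (SE, adjusted p = 0.000454), and was the only member of which macrophage and microglia levels overlapped between libraries. The other 8 showed no overlap, as did 5.3% of the 3776 genes. Macrophages held 30.2 and 59.3 CPM of Fcrls in the WT and KO early libraries, 1026 and 60.1 at the intermediate and 865.2 and 29.6 at the late stage. The WT intermediate and WT late libraries were over 10 times higher than the other 4, and across the 6 libraries microglia held 1.29 to 23.8 times the Fcrls level of macrophages.

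In both high libraries most macrophages were Fcrls-positive, 11 of 16 and 15 of 23, against 8 of 106, 4 of 75, 13 of 84 and 8 of 113 in the WT early, KO early, KO intermediate and KO late libraries. The richest cell held 31 of 87 Fcrls UMIs in the WT intermediate, 39 of 103 in the WT late and 19 of 24 in the KO early library. Fcrls was high in each of the 3 macrophage clusters, at 516.0, 964.6 and 1189 CPM in the WT intermediate library (5, 5 and 6 cells). In the WT late library the clusters were at 542.3, 284.6 and 1264 (11, 7 and 5 cells). No cluster of the other libraries exceeded 130.8. The microglia of the WT intermediate and WT late libraries also had the highest Fcrls levels among tumour libraries. Other markers moved with it. Border macrophage markers summed to 4542 and 2142 CPM in macrophages of the WT intermediate and WT late libraries against 946.8 to 1541 in the others, and microglia markers to 2513 and 2990 against 902.7 to 1564. Within the WT intermediate library border markers were at 5415 in Fcrls-positive and 1524 in Fcrls-negative macrophages. Their part in the Fcrls level was not tested.

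**Figure D4:**
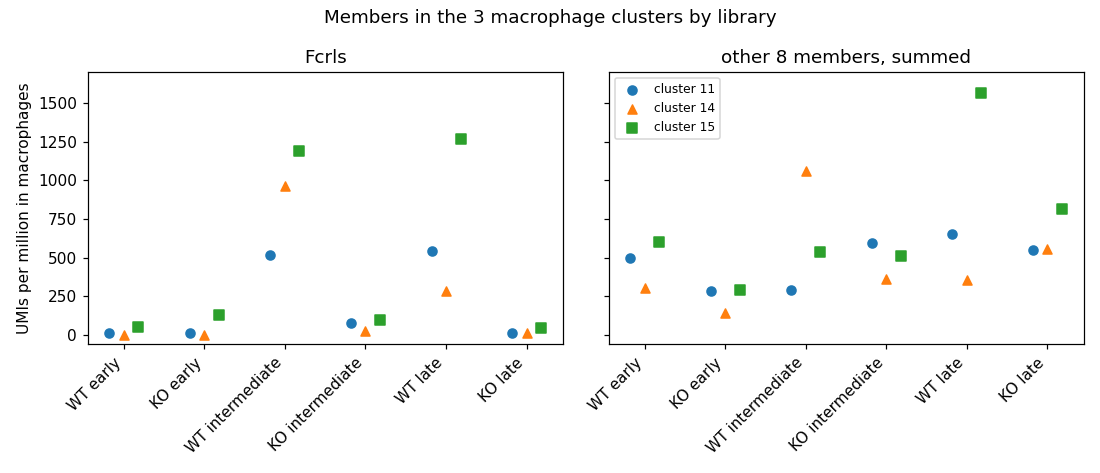
CPM of Fcrls (left) and of the other 8 genes summed (right) in the 3 macrophage clusters, by tumour library. Fcrls is at 284.6 to 1264 in all 3 clusters of the WT intermediate and WT late libraries, which hold 5 to 11 cells each, and at most 130.8 elsewhere.

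As shares of thinned cells, macrophages were positive for Cx3cr1 in 26.9%, for Olfml3 in 12%, for Fcrls in 7.19%, for P2ry12 in 6.00% and for Tmem119 in 4.56%, before thinning 45.1%, 28.3%, 14.2%, 16.6% and 11.5%. The other 4 genes were found in at most 2.40%. Tumour cells, which should lack most of these transcripts, gave 1.24% for Cx3cr1, 0.453% for Fcrls, 1.30% for P2ry12 and 1.75% for Tmem119 at the same thinned depth, before which the median was 2933 to 4386 UMIs in macrophages and 3562 to 5852.5 in tumour cells. Cx3cr1, Fcrls and P2ry12 had a larger share in macrophages than in tumour cells in 6 of 6 libraries, though P2ry12 by little in the KO early library (1.33% against 1.19%). Tmem119 did so in 3 of 6, since macrophages were at 0% in the WT intermediate and WT late libraries and at 1.77% against 3.62% in the KO late library. By CPM of all UMIs, macrophages held 82.6 of Tmem119 against 3.13 in tumour cells of the WT intermediate library. These levels were 50.4 against 19.1 in the WT late and 33.8 against 33.4 in the KO late library. The source of Tmem119 UMIs in these classes was not tested. For Olfml3 tumour cells gave 7.46%, a share beyond that of the other members. By CPM, Olfml3 in macrophages was under its tumour cell level in the KO early (56.9 against 73.1) and KO late (88.6 against 93.7) libraries. It was slightly above that level in the WT early library (87.1 against 83.0). It was further above in the WT intermediate (141.6 against 36.5), KO intermediate (112.0 against 78.45) and WT late (184.8 against 44.5) libraries. Of all macrophages 56.6% held none of the 9 genes and 4.08% held 3 or more.

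Summed over the 9 genes, microglia held 16940 and 17100 CPM in the naïve and 5333 to 8919 in the tumour libraries. Macrophages held 291.7 to 1932, which is 4.17% to 27.5% of the microglia level of the same library, and the 2 highest shares were those of the WT intermediate and WT late libraries with their high Fcrls. Tumour cells held 50.8 to 165.8 CPM, or 0.846% to 2.44%.

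**Figure D5:**
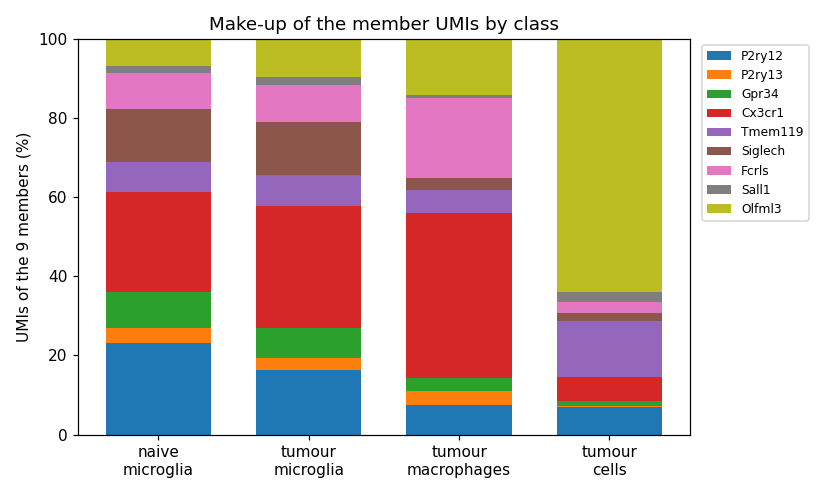
Percent of all UMIs of the 9 genes that each gene contributes, pooled over libraries, in naïve microglia, tumour microglia, tumour macrophages and tumour cells. Cx3cr1 makes up 25.4%, 30.8%, 41.8% and 5.91% in this order and P2ry12 23.2%, 16.4%, 7.42% and 6.93%, and Olfml3 makes up 63.9% in tumour cells.

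The make-up of the 9-gene signal differed by class. P2ry12 contributed 23.2% of the 9-gene UMIs in naïve microglia, 16.4% in tumour microglia and 7.42% in macrophages. The share of Cx3cr1 went the other way, from 25.4% to 30.8% and 41.8%, and that of Siglech from 13.4% in both microglia groups to 3.25% in macrophages. Fcrls went from 9.13% and 9.38% to 20.2%, most of it from the WT intermediate and WT late libraries.

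Of the wider list 27 of 33 genes were lower in macrophages than in tumour microglia and none was higher, where 13% of all 3776 genes were lower. The median log2 difference of the list was -1.89. Receptors and surface proteins were lower in 12 of 15 cases, with Slco2b1 at -6.35 ± 0.41 (SE, adjusted p = 3.06e-09), Adgrg1 at -5.08 ± 0.62 (adjusted p = 4.91e-06), the adenosine receptor Adora3 at -3.95 ± 0.56 (adjusted p = 2.53e-05) and Selplg at -2.77 ± 0.21 (adjusted p = 1.45e-08). All 9 enzymes, adaptors and others were lower, among them Hpgd at -5.78 ± 0.47 (adjusted p = 2.93e-08), the membrane adaptor Bin1 at -2.55 ± 0.20 (adjusted p = 1.53e-08) and Srgap2, a regulator of Rac, at -2.45 ± 0.25 (adjusted p = 4.76e-07). Of transcription factors and TGF-β signalling genes 6 of 9 were lower, with Sall3 at -5.07 ± 0.85 (adjusted p = 0.00015). The 6 genes that did not pass included Spi1 (-0.08), Runx1 (-0.26), P2ry6 (-0.86) and Cysltr1 (0.08).

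KO and WT libraries were compared within each class, with stage as a block, to ask whether loss of Acod1, the enzyme that makes itaconate, goes with another level of the homeostatic genes. In microglia 0 of 3165 genes (0%) were called, with 119 at an unadjusted p under 0.05, and DESeq2 called 0 with 74 at that level. Log2 fold changes of the 9 genes ran from -0.87 to 0.55. Fcrls was lower in the KO than the WT library at 4 of 4 stages (-0.87 ± 0.30, SE, adjusted p = 0.995 by edgeR), whereas P2ry12, P2ry13, Tmem119 and Siglech were higher in the KO library at 4 of 4 stages, Siglech by 0.55 ± 0.29 (adjusted p = 0.995). None of these differences passed the correction.

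In macrophages 9 of 6148 genes (0.146%, with 0.0651% lower and 0.0813% higher in KO) differed between KO and WT and none of them was among the 7 members that passed the filter, which left out P2ry13 and Sall1. Fcrls was lower in KO by -2.91 ± 0.77 (SE, adjusted p = 0.277 by edgeR), from the libraries given above, and it was higher in KO at the early stage and lower at the intermediate and late stages. Leaving out single libraries moved this value from -4.34 to -1.75, and the gene was called without the WT early, KO early, WT intermediate or KO intermediate library. Each of these fits has 1 residual degree of freedom, so their p-values are not given and the calls are not read as evidence of a difference. It was also called with cells led by microglia markers left out (-3.44, adjusted p = 0.00388) and with no filter on low counts (adjusted p = 3.2e-08). Gpr34 was lower in KO at 3 of 3 stages (-2.0 ± 0.62, SE, adjusted p = 0.486), as were Cx3cr1, Tmem119 and Olfml3. All 7 members tested had a log2 fold change below 0, from -2.91 to -0.33. By edgeR 4 of them had an unadjusted p under 0.05, and none passed the correction. The change from naïve to tumour microglia was also compared between genotypes, and the interaction was called for 0 of 4319 genes (0%; 27 at an unadjusted p under 0.05, and 0 by DESeq2). The 9 genes gave interaction terms of -0.94 to 0.62, with the lowest unadjusted p, 0.258, for Fcrls.

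Late and early tumours were compared for a change with stage. In microglia 0 of 1712 genes (0%; 78 at an unadjusted p under 0.05, 4 called by DESeq2) were called, and 8 of the 9 members were tested. Of these, 7 had a fold change above 0 and Gpr34 one of -0.35, with Fcrls furthest at 1.37 ± 0.44 (SE, adjusted p = 0.704 by edgeR). The summed level of the 9 genes was 5333 and 6990 CPM in the WT and KO early, 6001 and 6194 in the intermediate and 8717 and 8919 in the late libraries. Both late libraries thus lay above the other 4 tumour libraries and under both naïve ones, a difference that the tests of single genes did not call.

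In macrophages 0 of 6148 genes (0%; 348 at an unadjusted p under 0.05, 0 called by DESeq2) differed between late and early tumours. All 7 members tested had a log2 fold change above 0, from 0.23 to 3.52, with a median of 1.47 against -0.0175 for all genes. By edgeR 4 of them had an unadjusted p under 0.05, and none passed the correction. Siglech was higher in late tumours by 3.52 ± 0.83 and Gpr34 by 3.14 ± 0.75 (SE, adjusted p = 0.41 for both by edgeR). Few cells carried these values. In the WT late library 14 of the 15 Gpr34 UMIs and all 11 Siglech UMIs were in the 2 of 23 macrophages that held more microglia than macrophage marker UMIs, and in the KO late library 3 of 12 and 10 of 24 were in 6 such cells of 113. Once such cells were left out, neither gene passed the filter on low counts. Single libraries also decided these calls. By edgeR, Gpr34 was called without the KO early, WT intermediate or KO intermediate library, and Siglech without the WT intermediate or KO intermediate library. The fits without 1 library have 1 residual degree of freedom, so their p-values are not given and the calls are not read as evidence of a change. Fcrls, at 1.68 ± 0.96 (SE, adjusted p = 0.962 by edgeR), was called without the KO early, WT intermediate, KO intermediate or KO late library, with the same limit. Its value turned to -0.79 without the WT early library.

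The genes most like the mean profile of the 9 were sought across 74 sums of cells by library and class among 8552 genes. Among the 10 highest were Tlr7 (Pearson r = 0.946), Hpgds (0.929), Trem2 (0.921), Csf1r (0.909), Cd33 (0.907), Ptgs1 (0.898), Susd3 (0.877), Lair1 (0.872) and Abi3 (0.872). The members themselves had 0.796 for Sall1 to 0.968 for P2ry13, each against a mean that includes it, which raises these values. These sums share libraries and depth, Trem2 also served to name the microglia class, and 2 of the 10 genes recurred when only microglia and macrophage sums were used.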

How the data were processed

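The authors deposited 8 tables of raw UMI counts per gene and barcode, 1 per library, made with bcl2fastq 2.0, STAR and the Drop-seq pipeline on GRCm38/mm10 per the submitters' processing notes. Counts were not normalized, and each table lists 3000 barcodes. As in the study's methods, the 1000 largest barcodes of each library by UMI total, genes found in at least 30 cells and cells with at least 1000 genes were kept.

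Cells were clustered on 50 principal components of log2(CPM + 1) by tSNE (Rtsne 0.17, perplexity 50) and density clustering with at least 19 cells per cluster. Unassigned cells took the class of their 15 nearest neighbours, and a mixed myeloid cluster was divided by Leiden clustering (leidenalg 0.10.2). The 9 genes and 35 wider-list genes were left out, so that classes do not rest on them. Doublets were kept, and removed in an alternative. Names are rebuilt from markers and may differ from those of the study.

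Counts were summed per library and class (at least 5 cells, 17330 to 286227 UMIs in microglia and 84770 to 562744 in tumour macrophages) and tested with edgeR 4.0.16 (quasi-likelihood F-test, TMM scaling, filterByExpr), adjusted by Benjamini-Hochberg over all genes with a threshold of 0.05. The SE is the absolute log2 fold change divided by the square root of F. DESeq2 1.42.0 was an alternative, and each library was left out in turn. Intervals are exact 95% Poisson intervals. For a count of 0 the text gives a 1-sided bound of 3 counts, which lies below the upper end of that interval. Both cover counting error only. Levels are per 1000000 UMIs of 3′ tags, which do not scale with gene length. All genes past the threshold were eligible from the wider list, of which at most the 8 with the largest absolute change per comparison are named with their statistics. Libraries are separate mice or pools, and each genotype and stage has 1. The scripts were tested on simulated data. Values of a few listed genes are not reported here. The 9 genes, the lists and the tests were chosen with earlier results of these data known.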

Additional observations from a re-analysis of the deposited data

Results flagged for a closer look

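Olfml3 made up 63.93% of the UMIs of the 9 genes in tumour cells, a class outside the comparisons above, which is 6.55 times its share in tumour microglia. It was found as 1817 UMIs in 841 of 3397 tumour cells, at 36.5 to 93.7 CPM in all 6 tumour libraries. Per UMI of P2ry12 there were 7.46 to 15.6 UMIs of Olfml3 in tumour cells and 0.284 to 0.75 in microglia of the same libraries. Tmem119 gave 0.735 to 3.39 UMIs per UMI of P2ry12 in tumour cells and 0.376 to 0.522 in microglia. The source of these UMIs was not tested. In endothelial cells of tumour libraries, also outside the comparisons, Tmem119 made up 26.67% and Olfml3 41.67% of the 9-gene UMIs, 3.47 and 4.27 times their shares in tumour microglia, from 16 and 25 UMIs in 130 cells.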

How the results depend on the processing

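The 9 genes were lower in macrophages under each of 17 alternatives, and 6 to 8 of them were lower in tumour microglia under the 11 alternatives other than leaving out a library. At least 10 cells per sum, and at least 1500 genes per cell, which gave the 6, both lose the WT intermediate microglia. Leaving out 1 library gave 0 to 8 members and 42 to 603 genes for tumour against naïve microglia, and 734 to 1190 genes for macrophages against microglia. With cells of at least 1500 genes these comparisons called 203 and 641 genes, against 508 and 999. KO against WT in microglia called 7 genes with no filter, 5 with at least 1500 genes, 9 with at least 10 cells per sum and 0 to 12 without 1 library. In macrophages it called 1 member with no filter or with cells led by other markers left out and 0 to 1 without 1 library, and 54 genes with no filter, 4 with clustering on all genes, 0 with doublets removed, with at least 1500 genes or with no stage block, and 2 to 107 without 1 library. Late against early microglia called 4 genes by DESeq2, 16 with no filter, 5 with at least 1500 genes, 4 with at least 10 cells and 2 to 41 without 1 library. In macrophages the stage comparison called 2 members and 48 genes with no filter, 5 genes with another seed, 2 with Leiden clustering, and 0 to 3 members and 8 to 126 genes without 1 library, where Fcrls, at 1.68 with all, ranged from -0.79 (without the WT early library) to 4.47 (without the KO early library). Of the 10 most similar genes 2 recurred with microglia and macrophage sums only. With 1 library left out, the macrophage genotype fit and both stage fits have 1 residual degree of freedom, so their calls rest on little replication. The cause of these changes was not tested. The labels give no replicate numbers by which separate libraries could be paired. Macrophages and microglia were compared within libraries, with library as a block, and genotypes with stage as a block. Without the library block 9 of the 9 genes were still called lower in macrophages.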

Other observations

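Microglia fell into a cluster of 196 naïve and 14 tumour-library cells and another of 2 naïve and 158 tumour-library cells, although the 9 genes had not been used to form them. The 14 tumour-library cells came from 5 of the 6 tumour libraries and none shared a barcode with a naïve library. They held 3676 CPM of P2ry12, 4254 of Cx3cr1, 1974 of Siglech and 442.5 of Sall1, against 4004, 4375, 2300 and 330.7 in the naïve cells of the same cluster. The 158 cells of the other cluster held 935.2, 1878, 812.9 and 106.2 in the same order. The clusters were formed from other genes of the same cells, so these values are given without a test.

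Single members were also found outside the myeloid classes. Gpr34 gave 31 UMIs in 25 of 180 lymphocytes of tumour libraries. Sall1 gave 20 UMIs in 15 of 220 naïve astrocytes and 13 UMIs in 7 of 49 naïve ciliated ependymal cells.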
